A study of Mus musculus with 10 samples.

Results

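The comparison described here sets the RNA changes of Drosha knockout against those of Dicer1 knockout in OP9, a mouse bone marrow stromal cell line that can form fat cells. The change seen in Dicer1 knockout was subtracted, gene by gene, from that seen in Drosha knockout. Both changes are differences of log2(TPM + 1) between knockout libraries and the empty vector controls of their batch, where TPM is an abundance corrected for transcript length and scaled to one fixed total per library. Its members are the 11140 genes, of 32344 gene names present in both tables, with a TPM of at least 1 in 3 of the 6 libraries of the Drosha table and in 2 of the 4 libraries of the Dicer1 table. A further 547 names passed the minimum in the Drosha table alone and 940 in the Dicer1 table alone. Trpm3, the host gene of miR-204, lay just outside it, at 4.05 to 5.32 TPM in batch 2 and 0.266 to 0.465 TPM in batch 1.

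All 10 libraries came from OP9 cells given 1 µM rosiglitazone, an agonist of the fat cell regulator PPARγ, from confluence until day 10. Batch 2 held 3 Drosha knockout libraries, whose names carry the mark of 1 guide, and 3 wild-type libraries with empty vector. Batch 1 held 2 Dicer1 knockout libraries and 2 wild-type libraries with empty vector. The knockouts share no control libraries, and knockout and batch coincide, so a difference between the knockouts cannot be told apart from a difference between the batches. Whether the replicates were separate cultures, and whether a knockout was a clone or a pool, is not stated in the labels. The p-values therefore reflect only the spread among these libraries, and that spread may be technical.

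Drosha and Dicer1 act in sequence. Drosha, with its RNA-binding partner Dgcr8, frees hairpins from nuclear primary microRNAs, and Dicer1 trims the exported hairpins to the short duplexes that are loaded onto Argonaute proteins. Most microRNAs need both enzymes, so loss of either takes away most mature microRNAs, whereas primary transcripts and a few messages with Drosha-cut hairpins depend on Drosha alone. The loaded microRNA pairs with messages mainly through its seed, bases 2 to 8, and lowers their level.

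The microRNAs below are shown because their host transcripts, their rows in the tables or their published targets are described next. They are mature sequences from RefSeq (GRCm38.p6), written 5′ to 3′ with the seed in capitals.
miR-22-3p: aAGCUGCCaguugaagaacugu
miR-100-5p: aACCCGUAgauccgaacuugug
miR-125b-5p: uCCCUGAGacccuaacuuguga
miR-351-5p: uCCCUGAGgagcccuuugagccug
let-7a-5p: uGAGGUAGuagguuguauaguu
miR-15a-5p: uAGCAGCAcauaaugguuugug
miR-15b-5p: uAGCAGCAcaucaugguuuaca
miR-16-5p: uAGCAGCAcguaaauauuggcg
miR-322-5p: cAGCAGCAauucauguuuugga
miR-503-5p: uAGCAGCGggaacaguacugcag
miR-29a-3p: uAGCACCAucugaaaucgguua
The seed AGCAGCA is common to miR-15a, miR-15b, miR-16 and miR-322, and CCCUGAG to miR-125b and miR-351. Mature miR-22-3p lies at chr11:75463772-75463793 on the plus strand, in the transcript of Mir22hg, and miR-100-5p at chr9:41531437-41531458 on the plus strand, in that of Mir100hg. On the minus strand of the same build, miR-15a-5p lies at chr14:61632075-61632096, in the region of Dleu2, and miR-322-5p and miR-503-5p lie on chromosome X at chrX:53054306-53054327 and chrX:53054027-53054049.

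Libraries of 1 group resembled each other closely in batch 2, with Pearson correlations of 0.993 to 0.994 across genes. The correlation was 0.989 between the Dicer1 knockout libraries and 0.978 between the batch 1 empty vector libraries, whose median absolute log2 difference was 0.209 against 0.0717 to 0.110 within the other groups. The empty vector means of the batches correlated at 0.848, and 2844 of the 11140 genes (25.5%) stood over 2-fold apart between them. Each library's TPM sums to the same total, so sequencing depth is unknown. In bulk RNA, fewer cells of a type and less RNA per cell cannot be told apart.

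Drosha itself gave the check of the Drosha label. With empty vector in batch 2 it stood at 38.9, 39.6 and 38.6 TPM, against 14.8, 13.7 and 15.6 TPM in Drosha knockout. In batch 1 the gene stood at 28.6 and 22.3 TPM with empty vector and at 27.97 and 30.2 TPM in Dicer1 knockout. Drosha fell only in the knockout of its name (ENSMUSG00000022191, difference -1.54 ± 0.14 SE, limma adjusted p = 5.22e-05). Dicer1 stood at 23.8 and 17.3 TPM with empty vector in batch 1 and at 19.3 and 14.9 TPM in Dicer1 knockout. These groups overlapped (-0.25 ± 0.21, limma adjusted p = 0.387), so the level of the Dicer1 transcript does not check that label, which is used here as given.

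In both knockouts more genes rose than fell before scaling, and 80.5% of the genes called in both moved the same way, or 72.0% after median-ratio scaling. A gene was called at a limma adjusted p under 0.05. In Drosha knockout 4422 genes rose (39.7% of those tested) and 865 fell (7.76%). In Dicer1 knockout 2621 rose (23.5%) and 1160 fell (10.4%). Of 2323 genes called in both, 1558 rose in both (14% of those tested) and 312 fell in both (2.8%). Another 360 rose in Drosha knockout and fell in Dicer1 knockout (3.23%), and 93 did the reverse (0.835%). The median gene shifted by 0.14 in Drosha knockout and by 0.16 in Dicer1 knockout. After median-ratio scaling, which sets that shift to about 0, 2156 genes rose and 2073 fell in Drosha knockout, and in Dicer1 knockout fewer rose (1487) than fell (1694). Then 549 genes rose in both, 652 fell in both, and 324 and 143 moved in opposite directions. All 549 and all of the unscaled 312 were common to both scalings, against 246 of the 360 and 53 of the 93.

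Many calls in Dicer1 knockout needed both of its libraries. With 1 left out, the spread comes from the batch 1 controls alone. Sizes moved less for the mitosis genes below, with a median of -1.77, or -1.67 and -1.95 without Dicer1 knockout replicate 1 and 2. Without its replicate 1, 296 genes rose and 271 fell there, so that 193 rose in both knockouts, 82 fell in both, and 90 and 17 moved in opposite directions. Without its replicate 2 the corresponding counts were 439, 319, 292, 85, 112 and 26. Without batch 1 empty vector replicate 2, 575 genes rose in Drosha knockout and fell in Dicer1 knockout. Of 135 calls in Dicer1 knockout among the genes chosen for naming, 80 held under each batch 1 library left out. Those of Ifit3, Rrm1 and Uhrf1 were lost with either Dicer1 knockout library left out, those of Mcm5, Birc5, Gtse1 and Apoe without its replicate 1, and that of Idi1 without its replicate 2.

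The difference itself was called for 3958 genes (35.5%), 1943 with a higher change in Drosha knockout (17.4%) and 2015 with a lower one (18.1%). Scaling moved these counts to 2132 and 1925, with 1911 and 1860 genes in common. All 453 genes that moved in opposite directions were called for the difference, which opposite calls on the same values all but require. Of the 1558 genes that rose in both, 721 rose more in Dicer1 knockout, 22 rose more in Drosha knockout, and 815 were not called for the difference. Of the 312 that fell in both, 180 fell more in Dicer1 knockout, 0 fell more in Drosha knockout, and 132 were not called. Changes in Dicer1 knockout were wider, with an SD over genes of 0.639 against 0.319, and less precise, with a median SE of 0.158 against 0.0678. Across genes, which are not independent replicates, the changes correlated at 0.141 (Pearson) and 0.235 (Spearman), and 65.5% had the same sign, or 60.0% after scaling.

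**Figure D1:**
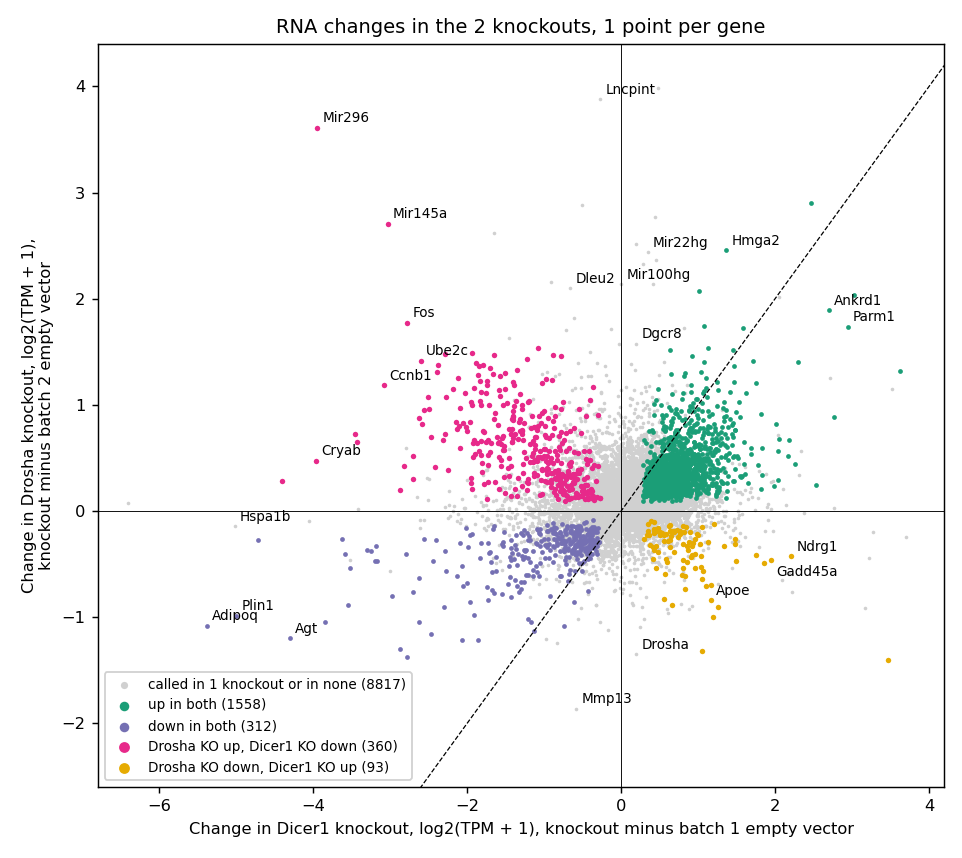
Change of each of the 11140 genes in Dicer1 knockout (x axis) and in Drosha knockout (y axis), in log2(TPM + 1) units; colours mark the 4 classes of genes called in both knockouts, and the dashed line marks equal changes. Most points spread further along the x axis (SD 0.639) than along the y axis (SD 0.319), and the 360 genes that rose in Drosha knockout and fell in Dicer1 knockout fill the upper left.

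Noncoding host transcripts of microRNAs and the message of Dgcr8, the partner of Drosha, rose in Drosha knockout and were not called in Dicer1 knockout with all libraries. Of 5 noncoding microRNA hosts tested, 4 rose in Drosha knockout and 0 changed in Dicer1 knockout, and the difference was called higher for 3 and lower for 0, with a median change of 2.10 in Drosha knockout and -0.0042 in Dicer1 knockout. In Dicer1 knockout 2 hosts rose without batch 1 empty vector replicate 1, 2 fell without its replicate 2, and 1, Dleu2, fell after scaling. Mir22hg stood at 19.9, 21.8 and 20.5 TPM with empty vector and at 121, 115 and 114 TPM in Drosha knockout. Its batch 1 values were 36.5 and 32.9 TPM with empty vector and 41.9 and 46.7 TPM in Dicer1 knockout, a change that was not called (difference 2.09 ± 0.10, limma adjusted p = 2.77e-06). All 3 Drosha knockout libraries stood above every other library.

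Mir100hg, which carries miR-100 and miR-125b, rose from 13.8, 13.9 and 9.90 TPM to 75.6, 50.2 and 51.5 TPM in Drosha knockout. In batch 1 it stood at 82.7 and 48.4 TPM with empty vector and at 63.5 and 62.7 TPM in Dicer1 knockout, within the spread of the controls (difference 2.14 ± 0.34). Dleu2 rose from 14.7, 14.9 and 14.5 TPM to 58.4, 75.9 and 65.2 TPM in Drosha knockout, while its batch 1 values were 13.3 and 8.71 TPM with empty vector and 6.95 and 5.98 TPM in Dicer1 knockout, a change of -0.66 that was not called (difference 2.76 ± 0.22). Lncpint, a noncoding RNA gene, had the widest difference after Mir365-1 among genes called in Drosha knockout alone. Lncpint rose from 1.098, 2.35 and 1.64 TPM to 39.7, 32.8 and 41.9 TPM there, against 5.17 and 7.22 TPM with empty vector and 5.99 and 3.98 TPM in Dicer1 knockout (difference 4.15 ± 0.31).

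Dgcr8, whose message carries a hairpin that Drosha cuts, rose from 19.7, 20.9 and 16.003 TPM to 57.4, 52.5 and 64.4 TPM in Drosha knockout. In batch 1 its groups overlapped, at 32.4 and 18.7 TPM with empty vector and 32.5 and 24.8 TPM in Dicer1 knockout (difference 1.38 ± 0.29, limma adjusted p = 0.00533). Dicer1 itself rose in Drosha knockout, from 9.52, 8.49 and 9.21 TPM to 18.8, 16.5 and 19.6 TPM (difference 1.19 ± 0.21). Among 22 coding hosts, 3 had a higher and 1 a lower change in Drosha knockout, beside 17.4% and 18.1% of all genes. These counts moved with either batch 1 empty vector library left out. Smc4, a condensin gene that hosts miR-15b and miR-16, moved in opposite directions: it rose from 35.2, 32.4 and 33.2 TPM to 47.4, 49.6 and 54.4 TPM in Drosha knockout and fell from 52.5 and 36.4 TPM to 22.5 and 27.4 TPM in Dicer1 knockout (difference 1.36 ± 0.20). The fall was not called with either Dicer1 knockout library left out. Srebf2, the cholesterol regulator that hosts miR-33, rose by 0.58 in Drosha knockout with a change of -0.20 in Dicer1 knockout that was not called.

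Since mRNA was captured on beads, the microRNA rows of the tables do not measure mature microRNAs. Of 23 such rows tested, 4 had a higher and 3 a lower change in Drosha knockout, beside 17.4% and 18.1% of all genes. Without batch 1 empty vector replicate 2, 7 were higher, and without Dicer1 knockout replicate 2 or batch 2 empty vector replicate 1 or 2, 1 was lower. Mir296 was listed at 0 in all batch 2 controls and reached 11.1, 16.2 and 7.72 TPM in Drosha knockout. In batch 1 its controls stood at 9.01 and 22.8 TPM, and both Dicer1 knockout libraries were listed at 0. Mir145a moved the same way, from 7.68, 3.61 and 1.89 TPM to 44.7, 17.4 and 37.4 TPM in Drosha knockout, and was listed at 0 in Dicer1 knockout against 8.77 and 5.86 TPM. The row of Mir199a-1 held the same values as Mir145a in batch 2 empty vector replicates 1 and 3, 7.68 and 1.89 TPM. Calls of Mir296 and Mir145a may therefore rest on few reads, which cannot be checked without read counts. Mir6236, which was tested, lost more mean TPM than any other joined name in both batches (-3240 and -19075). It stood at 869, 568 and 10521 TPM in the batch 2 controls, so that loss rests on 1 control. In batch 1 it stood at 39442 and 47616 TPM with empty vector and at 23044 and 25863 TPM in Dicer1 knockout. Mir322 and Mir503, the rows with the highest values in Drosha knockout, could not enter the comparison. Mir322 stood at 1039.7, 1207 and 1497 TPM there against 18.3, 15.5 and 13.95 TPM with empty vector, and Mir503 at 1142, 1258 and 1606 TPM against 34.4, 26.3 and 12.9 TPM. In batch 1 Mir322 was listed at 0 in all 4 libraries, and Mir503 and Mir29a were above 0 in 1 empty vector library each, at 12.5 and 3.72 TPM.

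**Figure D2:**
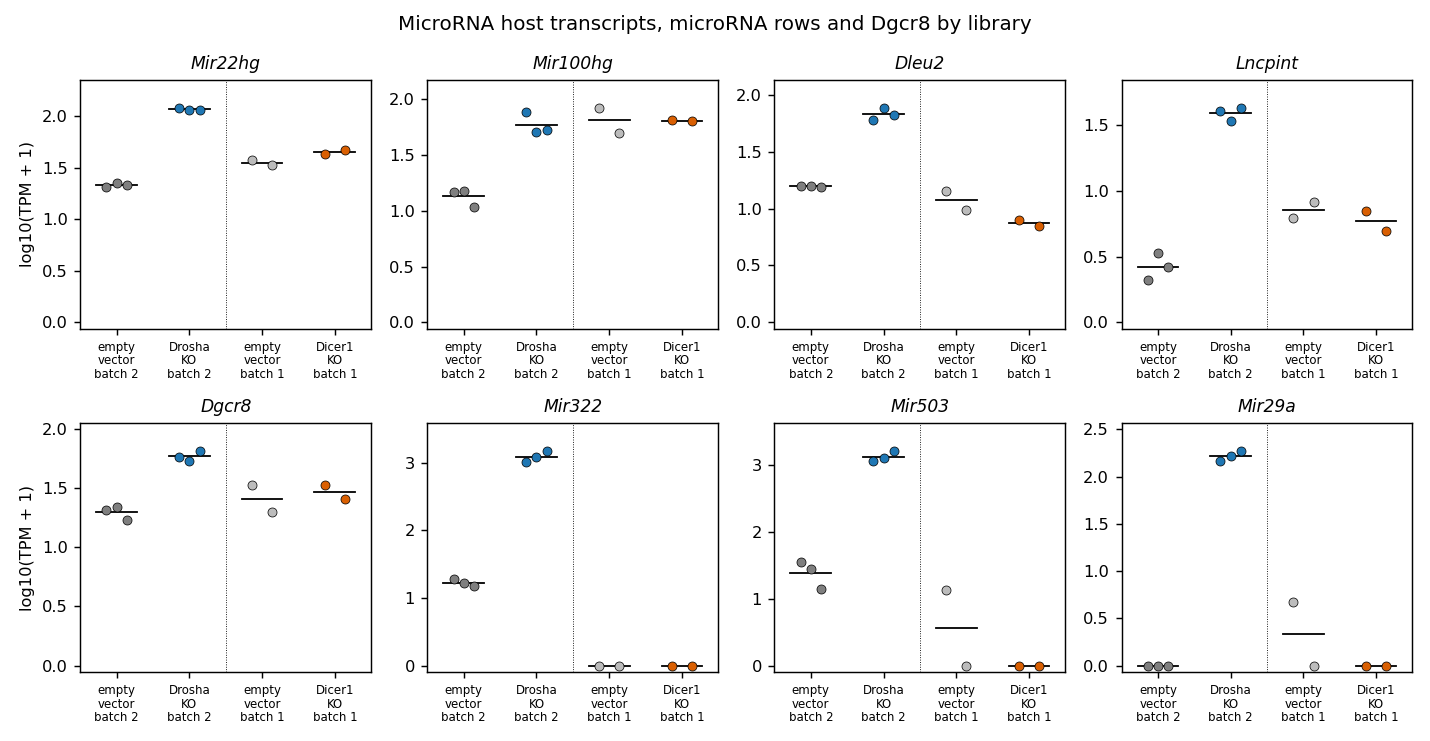
Level of microRNA host transcripts, microRNA rows and Dgcr8 in each library, as log10(TPM + 1); points are libraries, bars are group means, and the dotted line parts the batches. All 8 rows are higher in the 3 Drosha knockout libraries than with empty vector in batch 2, whereas in batch 1 Mir322, Mir503 and Mir29a are at 0 in both Dicer1 knockout libraries and above 0 in at most 1 control.

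The widest opposite movement was that of cell division genes. All 24 mitosis genes rose in Drosha knockout, 23 of them fell in Dicer1 knockout, and all 24 had a higher change in Drosha knockout. The median change was 1.18 in Drosha knockout and -1.77 in Dicer1 knockout, with a median difference of 2.96, against -0.02 over all genes. The median level over the list went from 3.65, 3.36 and 3.85 TPM to 10.1, 10.1 and 10.3 TPM in batch 2, and from 36.1 and 23.3 TPM to 5.94 and 7.30 TPM in batch 1. Mitosis RNAs were therefore scarce in the controls of batch 2 and abundant in those of batch 1, and the median levels in both knockouts lay between them. In each of the 24 genes the libraries of both knockouts were parted from those of their own controls with no overlap. That was not particular to mitosis genes. It held for 358 of the 360 genes opposite in this direction, which calls in both knockouts all but require. It also held for 1199 of the 1943 genes with a higher difference and for 75 of 82 ribosomal protein genes. The count of 24 for the difference held under each library left out. Leaving out Dicer1 knockout replicate 1 left 13 genes called as opposite.

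Ccnb1, which encodes the mitotic cyclin B, had the widest difference of the group (ENSMUSG00000041431). Ccnb1 rose from 6.01, 5.60 and 5.69 TPM to 13.8, 15.0 and 14.4 TPM in Drosha knockout and fell from 59.6 and 29.3 TPM to 3.65 and 4.52 TPM in Dicer1 knockout (1.19 ± 0.07 and -3.08 ± 0.33, difference 4.27 ± 0.32, limma adjusted p = 1.82e-05). Both batch 1 controls stood above every other library, although they differed from each other about as widely as the groups of batch 2 did. Ube2c, the ubiquitin-conjugating enzyme of the anaphase-promoting complex, rose from 15.3, 14.5 and 13.4 TPM to 38.7, 39.2 and 42.2 TPM and fell from 164 and 78.1 TPM to 15.2 and 20.8 TPM. Kif20a, a kinesin of cytokinesis, had changes of 1.48 and -2.29, and Ccnb2, a second B cyclin, of 1.37 and -2.38. The narrowest difference was that of Foxm1, the transcription factor of mitotic genes, with changes of 0.90 and -0.86. Bub1, a spindle checkpoint kinase gene, was the member whose fall was not called (-1.08).

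DNA replication genes moved in the same directions with a smaller median difference. Of 26 tested, 22 rose in Drosha knockout and 16 fell in Dicer1 knockout, beside 39.7% and 10.4% of all genes. A higher change in Drosha knockout was called for 24, and 13 were called as opposite, beside 17.4% and 3.23%. The median difference was 1.49. Their median level went from 9.80, 10.0 and 9.28 TPM to 15.0, 15.8 and 16.7 TPM in batch 2 and from 35.9 and 24.4 TPM to 14.5 and 14.2 TPM in batch 1. Mcm5, a subunit of the replicative helicase, rose from 5.80, 7.22 and 5.81 TPM to 16.7, 16.4 and 18.4 TPM and fell from 41.1 and 25.2 TPM to 10.8 and 13.2 TPM (difference 2.68 ± 0.26, limma adjusted p = 6.82e-05). Rrm1, the large subunit of ribonucleotide reductase, had changes of 1.21 and -1.03, and Uhrf1, which recognises hemimethylated DNA at the fork, of 0.67 and -1.91. Mcm7 rose in Drosha knockout (0.31) with a change of 0.21 in Dicer1 knockout, and neither it nor Gins1 was called for the difference. With Dicer1 knockout replicate 1 left out, 0 of the 26 were called as opposite, and without its replicate 2, 3 were, while without batch 1 empty vector replicate 2 there were 20.

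Ccne1, which encodes cyclin E and is a published target of microRNAs with the seed AGCAGCA shown above, moved in opposite directions too. Ccne1 rose from 3.41, 3.14 and 3.21 TPM to 9.25, 9.19 and 8.83 TPM and fell from 20.5 and 19.3 TPM to 8.79 and 10.6 TPM (difference 2.22 ± 0.14). The fall was not called with either of the Dicer1 knockout libraries left out. Of 17 such miR-15/16 targets, 5 had a higher and 6 a lower change in Drosha knockout, beside 17.4% and 18.1% of all genes. Of the 17, 3 rose in both and 1 was opposite, beside 14% and 3.23% of all genes. With either Dicer1 knockout library left out, 0 rose in both and 0 were opposite. Those higher in Drosha knockout were Ccne1, E2f7, Wee1, Chek1 and Ccnd2. Those lower were Cdk6, E2f3, Fgf2, Fgfr1, Rictor and Vegfa, of which the growth factor gene Vegfa rose from 309 and 327 TPM to 614 and 609 TPM in Dicer1 knockout and had a change of -0.20 in Drosha knockout that was not called.

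**Figure D3:**
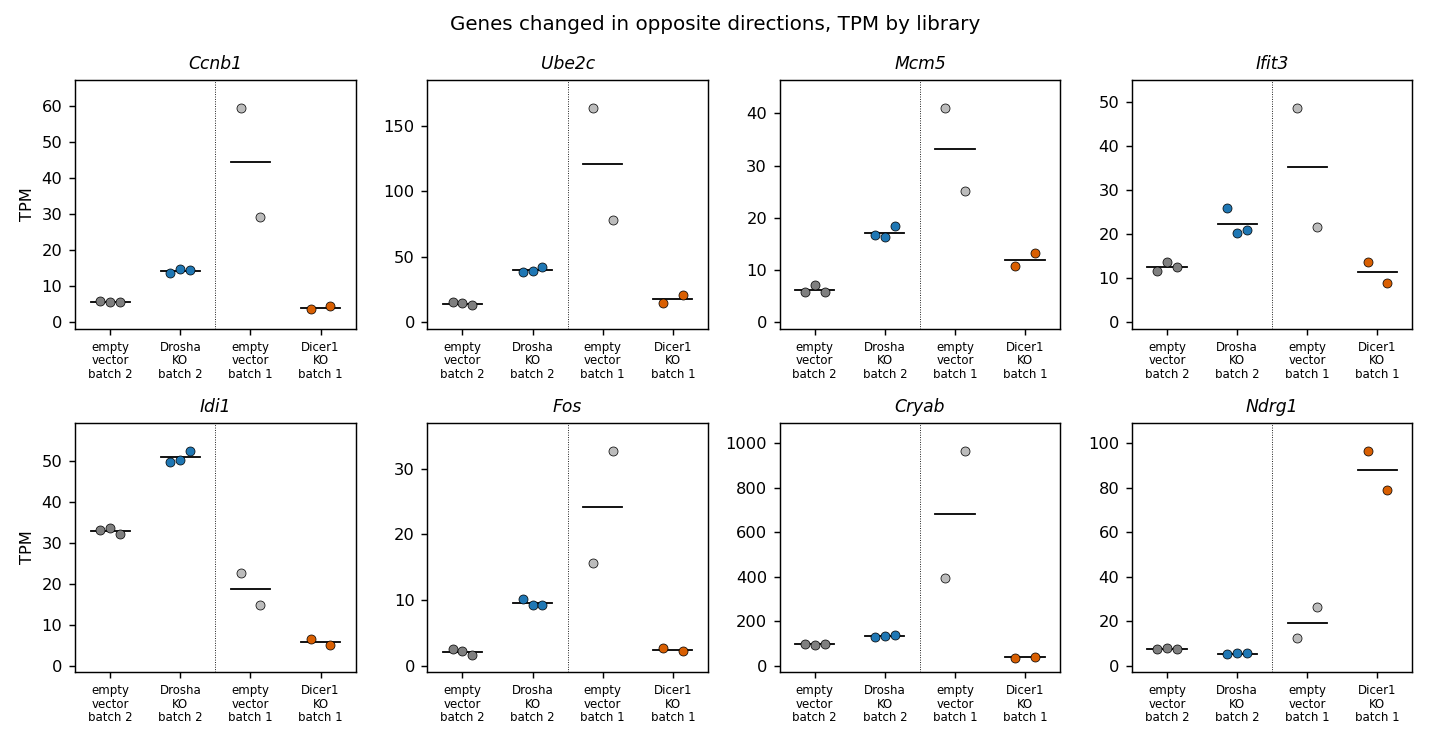
TPM of 8 genes that moved in opposite directions in the knockouts, by library; points are libraries, bars are group means, and the dotted line parts the batches. In the first 7 genes Drosha knockout lies above its controls and Dicer1 knockout below its own, and Ndrg1 shows the reverse.

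Most tested interferon response genes rose in Drosha knockout, and none was called higher in Dicer1 knockout. Of 17 tested, 14 rose in Drosha knockout and 7 fell in Dicer1 knockout, beside 39.7% and 10.4% of all genes. After scaling 9 rose in Drosha knockout. A higher change in Drosha knockout was called for 14 and 5 were opposite, beside 17.4% and 3.23%, with medians of 0.50 and -0.76. Ifit3, an antiviral RNA-binding protein gene, rose from 11.6, 13.7 and 12.7 TPM to 25.98, 20.3 and 20.9 TPM and fell from 48.8 and 21.6 TPM to 13.8 and 9.03 TPM (difference 2.23 ± 0.40, limma adjusted p = 0.00218). Usp18, which removes the ubiquitin-like protein ISG15, rose by 1.70 in Drosha knockout, with a change of -0.72 in Dicer1 knockout that was not called. Irf7, a regulator of type I interferon genes, fell by 1.79 in Dicer1 knockout and had a change of 0.05 in Drosha knockout. The listed genes Oas2, Oasl1, Mx1, Mx2 and Rsad2 were not tested. They stood at 0.41 TPM or less in every batch 2 library, Drosha knockout included, and at 0.338 to 17.5 TPM in batch 1. The batch 1 controls disagreed here, at median levels of 35.1 and 23.7 TPM; without replicate 2 of them 17 genes were higher and 12 opposite. With either Dicer1 knockout library left out 1 gene was called as opposite, and without Drosha knockout replicate 1 or batch 2 empty vector replicate 1 there were 3.

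Cholesterol genes rose in Drosha knockout, and few were called in Dicer1 knockout. Of 23 genes that make or take up cholesterol, 17 rose in Drosha knockout and 0 fell, beside 39.7% and 7.76% of all genes. In Dicer1 knockout 1 rose and 3 fell, beside 23.5% and 10.4%. A higher change in Drosha knockout was called for 15 and a lower one for 0, beside 17.4% and 18.1%. Idi1, an isomerase of the isoprenoid steps, moved in opposite directions, from 33.2, 33.5 and 32.2 TPM to 49.8, 50.2 and 52.4 TPM and from 22.7 and 14.9 TPM to 6.48 and 5.10 TPM (difference 2.13 ± 0.21). After scaling, 15 rose and 3 fell in Drosha knockout and 0 rose and 7 fell in Dicer1 knockout. Called as opposite were 3 genes, which became 6 after scaling, 1 without Dicer1 knockout replicate 1, 0 without its replicate 2, and 5 without batch 1 empty vector replicate 2.

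Heat shock and immediate early genes gave some of the widest single differences, and the levels behind them were highest in the batch 1 controls. Of 12 heat shock chaperones, 1 moved in opposite directions. A higher change in Drosha knockout was called for 7 and a lower one for 0, beside 17.4% and 18.1% of all genes. Hspa1b, an inducible HSP70 gene whose near-identical copy Hspa1a can share its reads, stood at 1793 and 4746 TPM in the batch 1 controls and at 90.8 and 86.8 TPM in Dicer1 knockout. In batch 2 it stood at 14.9, 13.96 and 14.5 TPM with empty vector and at 13.7, 12.5 and 12.8 TPM in Drosha knockout. The groups of batch 2 differed little beside those of batch 1, whose 2 controls stood furthest from all other libraries (difference 4.88 ± 0.42). Cryab, a small heat shock protein gene, rose from 98.0, 94.7 and 97.1 TPM to 129, 135 and 139.6 TPM in Drosha knockout and fell from 394 and 966 TPM to 36.3 and 40.9 TPM in Dicer1 knockout. Dnaja4, a cochaperone gene that is not in the list of 12, fell from 169 and 412 TPM to 22.4 and 23.8 TPM in Dicer1 knockout, and rose by 0.73 in Drosha knockout. Without Dicer1 knockout replicate 1, 4 chaperones were higher, and without batch 1 empty vector replicate 1, 4 were opposite.

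Fos, the immediate early transcription factor gene, ranked next after the rows of Mir296 and Mir145a among the opposite genes chosen for naming. Fos rose from 2.49, 2.24 and 1.60 TPM to 10.1, 9.28 and 9.30 TPM and fell from 15.6 and 32.7 TPM to 2.64 and 2.23 TPM (difference 4.56 ± 0.36, limma adjusted p = 2.20e-05). Of 17 immediate early genes, 9 had a higher and 3 a lower change in Drosha knockout, beside 17.4% and 18.1% of all genes. The lower count lay near that share. Egr1, a zinc finger factor gene, had changes of 0.72 and -2.29. Others went the other way or together: Klf2 rose in Dicer1 knockout (1.12) with a change of 0.01 in Drosha knockout, and Ier3 rose in both (0.90 and 1.36). Plat, which encodes tissue plasminogen activator, was opposite too, with changes of 0.65 and -3.43.

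Genes that fell in Drosha knockout and rose in Dicer1 knockout were the smallest class. Ndrg1, a hypoxia-inducible gene, fell from 7.69, 7.75 and 7.29 TPM to 5.04, 5.49 and 5.62 TPM and rose from 12.5 and 26.2 TPM to 96.5 and 78.8 TPM (difference -2.63 ± 0.33, limma adjusted p = 0.000265). Gadd45a, a growth arrest and DNA damage gene, fell by 0.46 and rose from 56.0 and 97.3 TPM to 287 TPM in each Dicer1 knockout library. Ets2, a transcription factor gene, had changes of -0.49 and 1.85. The others named by rank were Gpt, an alanine aminotransferase gene (-0.999 and 1.19), Gja1, a connexin gene (-0.48 and 1.49), the integrin gene Itga6 (-0.70 and 1.16), the adhesion gene Flrt2 (-0.26 and 1.48) and the row named Or5m3b (-0.31 and 1.47). The fall of Or5m3b in Drosha knockout was lost without Drosha knockout replicate 1 or batch 2 empty vector replicate 1 or 3, the rise of Gpt in Dicer1 knockout with either of its libraries left out, and that of Flrt2 without its replicate 1.

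Genes of glycolysis and the hypoxia response rose in Dicer1 knockout, and few were called in Drosha knockout. Of 22 tested, 14 rose and 0 fell in Dicer1 knockout, beside 23.5% and 10.4% of all genes. In Drosha knockout 5 rose and 2 fell, beside 39.7% and 7.76%. A lower change in Drosha knockout was called for 14 and a higher one for 0, beside 18.1% and 17.4%. The medians were 0.01 in Drosha knockout and 0.58 in Dicer1 knockout. Hk2, which encodes the inducible hexokinase, rose from 28.5 and 38.7 TPM to 96.7 and 89.1 TPM in Dicer1 knockout and stood at 1.77, 1.63 and 1.82 TPM against 1.32, 1.28 and 1.68 TPM in batch 2 (difference -1.64 ± 0.19). Its level in batch 2 was near the pseudocount of 1, which compresses changes on this scale. After scaling, 6 rose in Dicer1 knockout and 3 rose and 9 fell in Drosha knockout, and 13 were lower. In Dicer1 knockout 4 rose without its replicate 1 and 6 without its replicate 2.

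**Figure D4:**
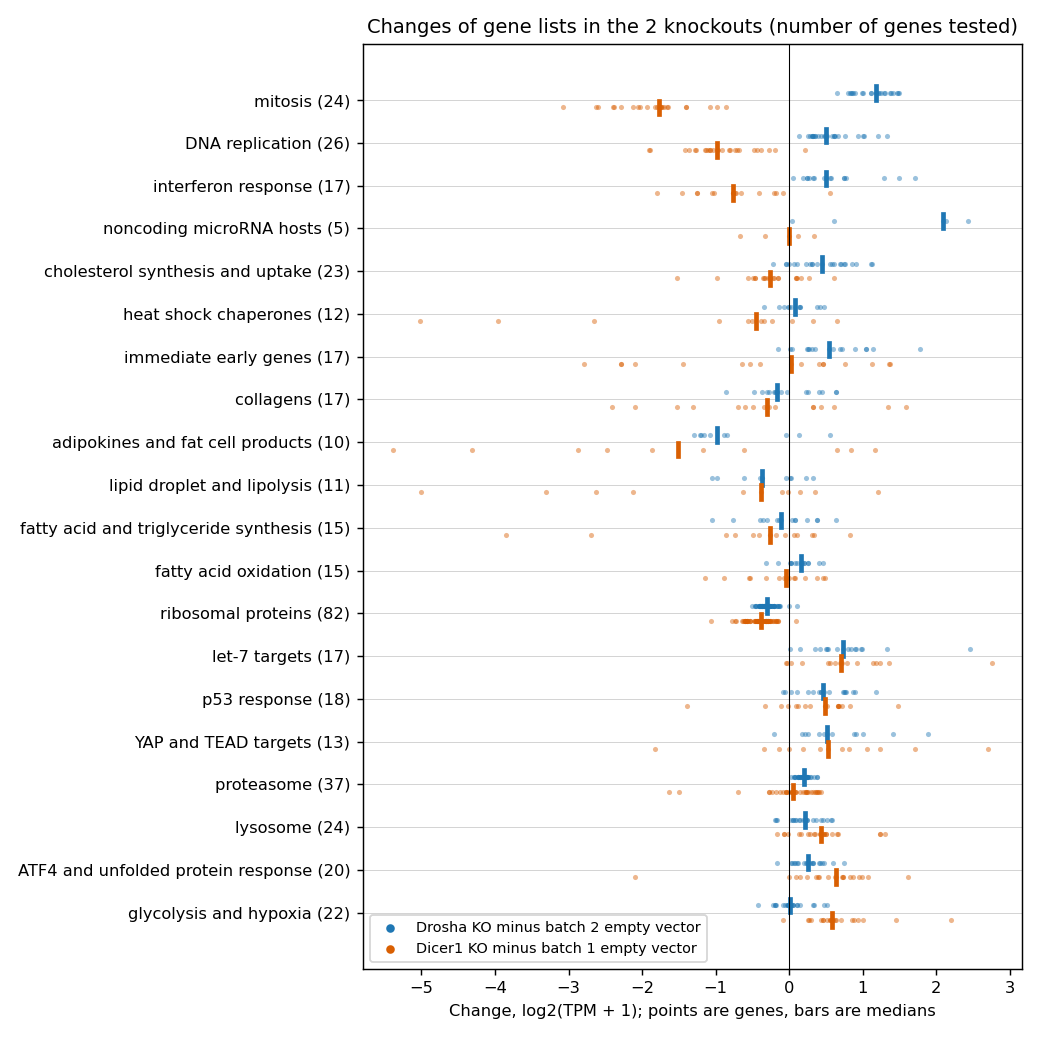
Changes of the tested members of 20 gene lists in each knockout, in log2(TPM + 1) units; points are genes, vertical bars are list medians, and numbers in parentheses are genes tested. The medians part most for mitosis (1.18 and -1.77) and lie near each other for let-7 targets (0.73 and 0.70).

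Several fat cell genes fell in both knockouts and further in Dicer1 knockout. The further fall was not particular to them: of all 312 genes that fell in both, 180 fell more in Dicer1 knockout and 0 more in Drosha knockout. Of 10 adipokine and fat cell product genes, 5 fell in both (Adipoq, Agt, Cfd, Adig and Rbp4), beside 2.8% of all genes. Each of these 5 had a higher change in Drosha knockout. Adipoq, which encodes adiponectin, fell from 231, 239.7 and 233 TPM to 106, 107 and 118 TPM in Drosha knockout and from 61.6 and 36.4 TPM to 0.148 and 0.164 TPM in Dicer1 knockout (-1.08 ± 0.05 and -5.39 ± 0.28, difference 4.30 ± 0.23, limma adjusted p = 4.14e-06). Its level in Drosha knockout was above that of the batch 1 controls. Agt, the angiotensinogen gene, fell from 205, 190.2 and 195 TPM to 88.2, 83.8 and 83.1 TPM and from 38.3 and 29.5 TPM to 1.01 and 0.512 TPM. Cfd, which encodes adipsin, fell from 44.4, 44.0 and 45.4 TPM to 18.3, 16.8 and 17.6 TPM, and from 6.26 and 7.33 TPM to a listed 0 and 0.130 TPM in Dicer1 knockout. Resistin (Retn), whose levels of 0.840 and 0.484 TPM in the batch 1 controls kept it out of the test, stood at 19.02 to 23.4 TPM with empty vector and 3.17 to 5.50 TPM in Drosha knockout.

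Not all fat cell products moved alike. Apoe and Lcn2, which encode apolipoprotein E and lipocalin 2, fell in Drosha knockout (-0.84 and -0.89) and rose in Dicer1 knockout (1.16 and 0.66), and Apln, which encodes apelin, did the reverse (0.55 and -0.62). The 3 opposite calls became 0 without Dicer1 knockout replicate 1 and 1 without its replicate 2, whereas 5 genes fell in both under each library left out. Of 11 genes of lipid droplets and lipolysis, 5 fell in both and 5 had a higher change in Drosha knockout, beside 2.8% and 17.4% of all genes. Plin1, which coats the droplet, fell from 49.0, 51.2 and 45.5 TPM to 24.2, 21.9 and 25.96 TPM and from 60.3 and 32.4 TPM to 0.408 and 0.406 TPM (difference 4.02 ± 0.28). Plin2, the coat protein of droplets in many cell types, rose in Dicer1 knockout (1.20) and had a change of 0.02 in Drosha knockout. Cidec, which fuses droplets, had changes of -1.05 and -2.62, and the lipase gene Lipe of -0.61 and -2.13.

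Uptake genes parted. Fabp4, the fatty acid carrier of fat cells, rose from 894, 900.3 and 894 TPM to 1171, 1135 and 1151 TPM in Drosha knockout and fell from 694 and 614 TPM to 172 and 201 TPM in Dicer1 knockout (difference 2.17 ± 0.10, limma adjusted p = 1.71e-06). Fabp5, a related carrier, was opposite as well (0.40 and -1.03), its fall not being called with either Dicer1 knockout library left out. Cd36, a fatty acid transporter gene, fell in both (-0.54 and -3.52), as did Lpl, the lipoprotein lipase gene (-0.17 and -1.67). Among 13 adipogenic transcription factors, 2 fell in both, Cebpa (-0.28 and -1.19) and Ebf1 (-0.18 and -0.73), against 4 after scaling. With either Dicer1 knockout library left out, or with 1 batch 2 library other than Drosha knockout replicate 3 left out, 1 fell in both. The master regulator Pparg had changes of 0.05 and -0.11, called in neither. The summed TPM of 8 fat cell markers was 1722 to 1779 in all batch 2 libraries, 848 and 1018 in the batch 1 controls and 225 and 253 in Dicer1 knockout, Fabp4 making up most of each sum. The summed TPM of 8 macrophage markers was 28.1 to 37.0 in every library. Tyrobp was listed at 0 in all libraries, Ptprc stood at most at 0.142 TPM and Adgre1 at most at 0.074 TPM, and most of the sum came from Lyz2 (17.7 to 20.8 TPM) and Cd14 (6.17 to 10.4 TPM) in batch 2 and from Cd68 (11.8 to 19.6 TPM) and Cd14 (16.4 to 19.1 TPM) in batch 1.

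Ranked by the smaller of a gene's 2 changes, Ltc4s, which encodes leukotriene C4 synthase, fell furthest in both knockouts among the eligible genes. It fell from 10.3, 7.02 and 6.75 TPM to 2.28, 3.01 and 2.06 TPM and from 11.3 and 9.28 TPM to 0.794 and 0.496 TPM (-1.37 and -2.78). Wfdc21, a secreted protease inhibitor-like gene, had changes of -1.22 and -2.07, and Gpd1, which makes glycerol phosphate for triglycerides, of -1.05 and -3.85. Of 15 genes that build fatty acids and triglycerides, 2 fell in both, Gpd1 and the desaturase gene Scd1 (-0.77 and -2.70), which became 6 after scaling, and 5 had a higher and 1 a lower change in Drosha knockout.

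Ribosomal protein genes fell by like amounts. Of 82 tested, 77 fell in Drosha knockout, 57 fell in Dicer1 knockout and 55 fell in both, with 0 that rose and medians of -0.30 and -0.39. A higher change in Drosha knockout was called for 15 and a lower one for 1, beside 17.4% and 18.1% of all genes. The median level over the list went from 1973, 1974 and 1923 TPM to 1586, 1609 and 1555 TPM in batch 2 and from 1605 and 1749 TPM to 1216 and 1262 TPM in batch 1. Rpl34 went from 1648, 1662 and 1560.3 TPM to 1339, 1397 and 1255 TPM and from 1805 and 2026 TPM to 1171 and 1148 TPM (difference 0.43 ± 0.09). Reads of these short messages can be shared with processed pseudogenes, so the level of any 1 of them is uncertain. The 55 calls in both rest on the Dicer1 knockout pair: 1 was left without its replicate 1 and 2 without its replicate 2. The count of higher genes lay at 5 with a separate spread for each batch, 26 with quantile normalization, 31 without batch 1 empty vector replicate 1 and 9 without Dicer1 knockout replicate 2.

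Most published let-7 targets rose in both knockouts. Of 17 published let-7 targets, 15 rose in Drosha knockout, 12 rose in Dicer1 knockout and 11 rose in both, beside 39.7%, 23.5% and 14% of all genes. In either knockout 0 fell, and the medians were 0.73 and 0.70, or 0.61 and 0.53 after scaling. The difference was called higher for 5 and lower for 5, beside 17.4% and 18.1% of all genes. Hmga2, a chromatin protein gene repressed by let-7, rose from 5.18, 6.54 and 5.86 TPM to 36.9, 37.5 and 35.2 TPM in Drosha knockout and from 231 and 212 TPM to 584 and 553 TPM in Dicer1 knockout (2.46 ± 0.08 and 1.36 ± 0.09, difference 1.10 ± 0.12, limma adjusted p = 0.000122). Its level in the batch 1 controls was already above that in Drosha knockout. Arid3a, a DNA-binding protein gene, rose more in Dicer1 knockout, from 2.84 and 3.21 TPM to 27.0 and 25.5 TPM, than in Drosha knockout, from 0.739, 0.839 and 0.739 TPM to 2.20, 2.24 and 2.41 TPM. Igf2bp1, an RNA-binding protein gene, rose in Drosha knockout (1.33) and had a change of 0.18 in Dicer1 knockout. Igf2bp2 (0.98 and 0.92), Nras (0.91 and 0.72) and Cdc25a (0.73 and 0.70) rose in both and were not called for the difference. Without Dicer1 knockout replicate 1 or 2, 3 and 4 let-7 targets rose in both, and without its replicate 1 the difference was called for 3 in each direction. With a separate spread for each batch, or without Drosha knockout replicate 3 or batch 2 empty vector replicate 1, 3 were called higher.

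Before scaling, messages of some genes of the microRNA silencing complex rose in both knockouts as well. Of 7 Argonaute and TNRC6 genes, 5 rose in Drosha knockout, 4 in Dicer1 knockout and 4 in both, beside 39.7%, 23.5% and 14% of all genes. Those 4 were Ago2 (0.60 and 0.95), Ago3 (0.31 and 0.62), Tnrc6a (1.29 and 0.65) and Tnrc6c (0.35 and 0.60). Tnrc6a, a scaffold of the silencing complex, rose from 16.5, 16.7 and 18.1 TPM to 40.0, 41.1 and 48.9 TPM and from 33.4 and 30.8 TPM to 45.3 and 57.2 TPM (difference 0.64 ± 0.16). After scaling, 3 rose in Drosha knockout and 1 in Dicer1 knockout, and with either Dicer1 knockout library left out 0 rose in Dicer1 knockout.

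The genes that rose furthest in both knockouts included matrix genes and targets of the coactivator YAP. Ankrd1, a target of YAP and TEAD, rose from 0.949, 0.468 and 0.615 TPM to 5.42, 5.56 and 4.58 TPM and from 8.99 and 4.43 TPM to 44.1 and 49.6 TPM. Ccn2, another such target that encodes a matrix-associated signal, rose from 19.2, 17.6 and 19.1 TPM to 53.8, 53.5 and 47.0 TPM and from 249 and 294 TPM to 943 and 837 TPM (1.42 and 1.71). Of 13 YAP and TEAD targets, 5 rose in both, beside 14% of all genes. Another 2 moved in opposite directions, Birc5 (1.00 and -1.83), which is also a mitosis gene, and F3, the tissue factor gene (-0.20 and 0.81). Leaving out Dicer1 knockout replicate 1, 3 rose in both and 0 were opposite.

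Parm1, a membrane mucin gene, rose further in Dicer1 knockout (1.74 and 2.94, difference -1.21 ± 0.15). Uhmk1, a kinase gene, rose in both, from 8.99, 9.13 and 9.16 TPM to 31.2, 30.9 and 35.2 TPM and from 23.7 and 25.6 TPM to 78.0 and 73.5 TPM (1.73 and 1.58, difference 0.14 ± 0.11, limma adjusted p = 0.329). Clcn3, a chloride-proton exchanger gene (1.37 and 1.47), and Col7a1, the collagen of anchoring fibrils (1.52 and 1.46) rose in both as well. The SE of the difference for Col7a1 was 0.45, and its rise in Dicer1 knockout was not called with either library left out.

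**Figure D5:**
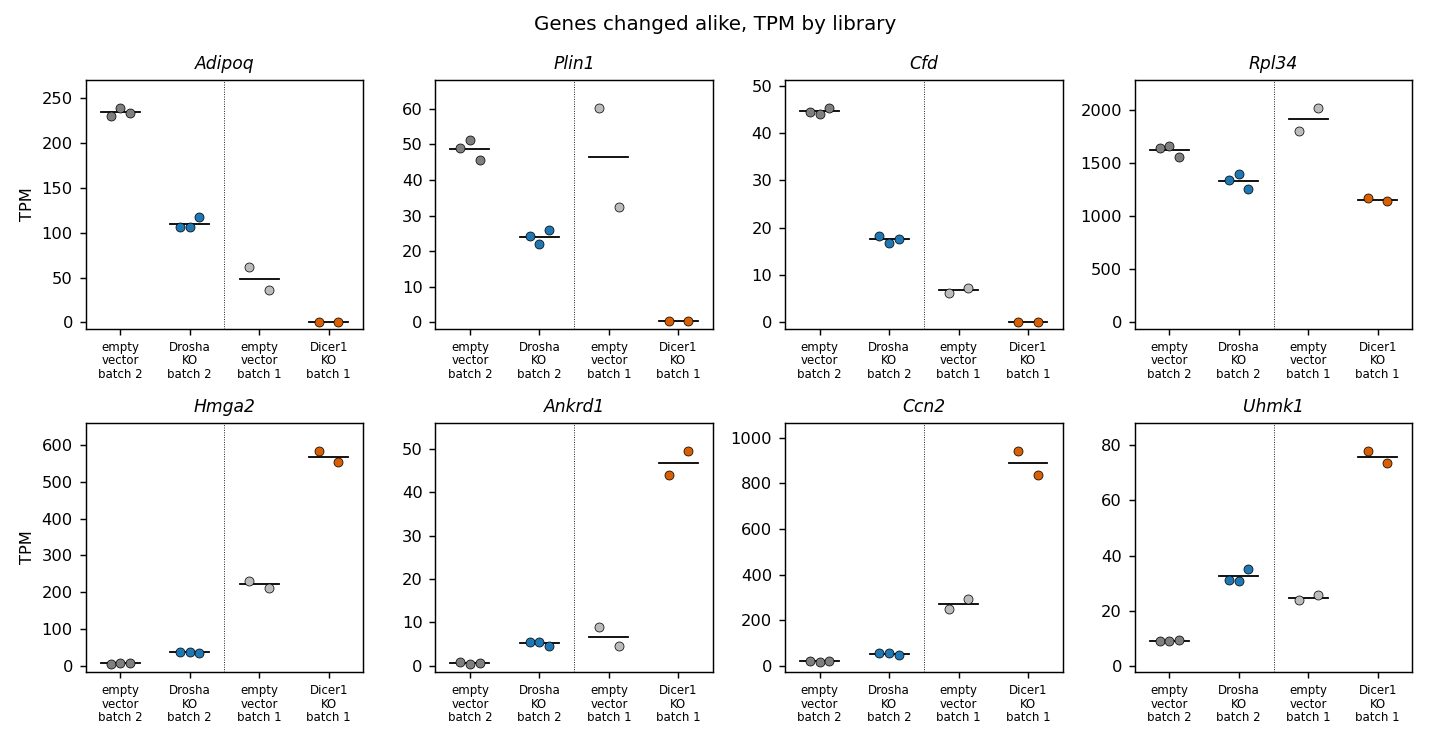
TPM of 8 genes that moved alike in the knockouts, by library; points are libraries, bars are group means, and the dotted line parts the batches. Adipoq, Plin1, Cfd and Rpl34 lie below their own controls in both knockouts, and Hmga2, Ankrd1, Ccn2 and Uhmk1 above them, from starting levels that differ between the batches.

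Some stress genes rose in both with unequal size, unlike the heat shock and interferon lists above. Of 20 genes of the ATF4 and unfolded protein response, 12 rose in Drosha knockout, 13 in Dicer1 knockout and 11 in both, beside 39.7%, 23.5% and 14% of all genes. A lower change in Drosha knockout was called for 7 and a higher one for 1, beside 18.1% and 17.4%. Atf4, the transcription factor gene of that response, rose from 166, 164 and 163 TPM to 191, 199 and 194 TPM in Drosha knockout and from 345 and 407 TPM to 815 and 763 TPM in Dicer1 knockout (difference -0.83 ± 0.09), the first rise not being called after scaling. Trib3, a pseudokinase gene downstream of Atf4, rose in Dicer1 knockout (1.61), with a change of 0.20 in Drosha knockout that was not called. Atf3 was the higher member, with changes of 0.59 and -2.09. After scaling, 4 genes rose in both, and without Dicer1 knockout replicate 1 or 2, 1 and 4 did. Without Dicer1 knockout replicate 1, Drosha knockout replicate 1 or batch 2 empty vector replicate 1, 4 genes were lower.

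Of 18 p53 response genes, 15 rose in Drosha knockout, 10 in Dicer1 knockout and 9 in both, beside 39.7%, 23.5% and 14% of all genes. Their medians were 0.45 and 0.49. Cdkn1a, which encodes the cell cycle inhibitor p21, rose in both (0.47 and 0.67), as did Mdm2, the ligase gene that limits p53 (0.44 and 0.51), and Gdf15, a secreted stress factor gene (0.87 and 0.82). None of these 3 was called for the difference. Trp53inp1 rose more in Dicer1 knockout (0.76 and 1.48), and Ccng1, a cyclin G gene, rose in Drosha knockout alone (0.73, with -0.12 in Dicer1 knockout). Gtse1, which is expressed in G2 and S phase, was opposite (1.19 and -1.40). After scaling, 12 rose and 2 fell in Drosha knockout, 7 rose and 1 fell in Dicer1 knockout, and 5 rose in both. Without Dicer1 knockout replicate 1 or 2, 1 and 3 rose in both.

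Collagen and secreted signal genes were mixed. Of 17 collagens, 6 fell in both and 3 rose in both, beside 2.8% and 14% of all genes, and 1 was opposite. A higher change in Drosha knockout was called for 8 and a lower one for 4, beside 17.4% and 18.1%. The opposite collagen fell in Drosha knockout, a call lost after scaling and with either Dicer1 knockout library left out. After scaling, 1 collagen was opposite in the other direction. Col6a2, a chain of microfibrillar collagen VI, fell from 1869, 1820.3 and 1829 TPM to 1488, 1496 and 1568 TPM and from 865 and 672 TPM to 142 and 145 TPM (difference 2.13 ± 0.12, limma adjusted p = 4.50e-06). Col12a1, a fibril-associated collagen, rose in Dicer1 knockout (1.34) and had a change of -0.12 in Drosha knockout. Mgp, a secreted inhibitor of calcification, stood at 234, 247 and 217 TPM against 216, 221 and 215 TPM in batch 2 and fell from 143 and 110.2 TPM to 5.52 and 7.80 TPM in Dicer1 knockout (difference 3.97 ± 0.18). Mmp13, a collagenase gene, fell in Drosha knockout (-1.86), with a change of -0.59 in Dicer1 knockout that was not called. Of 13 cytokines and chemokines, 5 rose in both and 1 fell in both, beside 14% and 2.8% of all genes. Another 1, Kitl, fell in Drosha knockout and rose in Dicer1 knockout (-0.48 and 0.59). Among the rises were the chemokine genes Ccl2 (1.03 and 1.34) and Cxcl1 (0.67 and 2.19). Another 2 rose in Drosha knockout and fell in Dicer1 knockout. Those were Ccl5 (0.95 and -2.56) and Ccl9 (0.73 and -1.38), both chemokine genes. With either Dicer1 knockout library left out, 1 collagen and 2 cytokine genes rose in both, 4 collagens fell in both, and Kitl was not called as opposite, as also after scaling.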

How the data were processed

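Libraries of bead-captured mRNA were sequenced from 10 samples of OP9 cells in 2 batches. The labels name more than 1 RNA kit and sequencer without saying which library each served. Per the submitters' processing notes, the authors made the deposited TPM values per gene with kallisto 0.48.0. The build, the annotation and any filter were not given in the sources used here. The deposited tables give no read counts, so depth and its precision are unknown. The authors' 3 columns of means and ratios were not used.

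Rows sharing a symbol were summed, rows without one (22369 and 22339 of 55357) were left out, and the tables were joined by symbol. Names found in 1 table only (556 and 587) were not analysed here. Changes were computed on log2(TPM + 1), which understates those of low genes, with limma 3.58.1 in R 4.3.3 (moderated statistics with a mean trend, Benjamini-Hochberg adjusted p under 0.05). Each knockout was fitted against the controls of its own batch, and the difference was fitted over all 10 libraries with 1 spread per gene. Alike and opposite classes use the calls of both separate fits. The script was tested on simulated data.

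The members and gene lists were chosen with earlier results of these data known. Genes named by rule were the 8 widest alike and opposite genes in each direction, the 5 widest called in exactly 1 knockout, up to 4 members per list, and Drosha, Dicer1, Dgcr8, Smc4 and Trpm3. Eligible genes had a mean of at least 5 TPM in the higher group of each table and groups that did not overlap. Other genes in the text, such as Foxm1, Bub1, Pparg, Cdkn1a, Ago2 and Kitl, were chosen after their values were seen. Some genes chosen by the rule are not reported here. Sequences come from RefSeq (GRCm38.p6). Alternatives were other pseudocounts, filters, scalings and spreads, a replicate block, and each library left out.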

Additional observations from a re-analysis of the deposited data

How the results depend on the processing

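The difference kept its counts within 1.5 times under every alternative (1644 to 2729 higher and 1484 to 2578 lower with a library left out), and 0 genes were called in the other direction. A spread estimated for each batch alone gave 1416 higher and 1357 lower genes, and 69.5% of the main calls were kept in the same direction. Without the low-TPM filter, 1681 genes rose and 682 fell in Dicer1 knockout, 918 rose and 160 fell in both, and 159 and 41 were opposite. Median-ratio scaling gave 2156 rises and 2073 falls in Drosha knockout, 1487 rises and 1694 falls in Dicer1 knockout, 549 and 652 alike, and 143 with Drosha down and Dicer1 up. Quantile normalization gave 2081, 2103, 1621, 1480, 554, 553 and 163 for the same counts. Over the libraries left out, rises in Dicer1 knockout ranged from 296 to 3403 and falls from 271 to 1738. Genes alike ranged from 193 to 1940 up and from 82 to 366 down, and opposite genes from 90 to 575 and from 17 to 112. A single library left in a group is assumed to vary like the others. Of 165 named genes called for the difference, 147 kept the call under every alternative. The difference changed sign, uncalled, with a library left out for Col7a1 (-0.45 to 0.57), Cd68 (-0.28 to 0.41), COX1 (-0.11 to 0.32) and ATP6 (-0.15 to 0.16). Where counts moved, the cause was not tested.

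Deviations of libraries from their group means were correlated across genes. Same-numbered libraries of batch 2 gave -0.0147 to 0.0375, against -0.0424 to 0.0278 for unlike numbers, so no pairing by number was seen there. In batch 1 same numbers gave -0.119. With 2 libraries per group, crossed numbers can then only give 0.119, so that value cannot decide whether numbers pair the samples. With the replicate block, 1741 genes were higher and 1692 lower for the difference, 2202 rose and 1043 fell in Dicer1 knockout, 4375 rose and 873 fell in Drosha knockout, 1313 and 275 were alike, and 337 and 75 opposite. With the batch 1 numbers crossed, a block chosen after seeing the data, the difference was called for 1923 and 1860 genes, alike for 1721 and 368, and opposite for 469 and 109.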

Other observations

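Proteasome genes held a group with interferon-linked members. Of 37 tested, 29 rose in Drosha knockout, beside 39.7% of all genes, or 6 after scaling. In Dicer1 knockout 8 rose and 5 fell, beside 23.5% and 10.4%, or 0 and 8 after scaling. A higher change in Drosha knockout was called for 10 and a lower one for 1, beside 17.4% and 18.1%. The 4 named members were higher for the difference, 3 of them immunoproteasome subunit genes. Psmb9, one of these, rose from 16.6, 16.6 and 14.9 TPM to 19.6, 20.7 and 18.6 TPM in Drosha knockout and fell from 10.3 and 8.53 TPM to 3.03 and 1.75 TPM in Dicer1 knockout (difference 1.92 ± 0.21, limma adjusted p = 0.000159). Its rise in Drosha knockout was not called after scaling, nor its fall without Dicer1 knockout replicate 2. With either Dicer1 knockout library left out, 0 proteasome genes rose there. Psmb10 had changes of 0.37 and -0.70, the fall not being called with either library left out, and Psmb8 of 0.11 and -1.51, of which the second was called.

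Before scaling, lysosome genes were called higher more often than lower in both knockouts. Of 24 tested, 17 rose in Drosha knockout, 15 in Dicer1 knockout and 12 in both, beside 39.7%, 23.5% and 14% of all genes. A higher change in Drosha knockout was called for 2 and a lower one for 10, beside 17.4% and 18.1%. After scaling 7 rose and 6 fell in Drosha knockout, 6 rose and 1 fell in Dicer1 knockout and 2 rose in both, and without Dicer1 knockout replicate 1 or 2, 1 and 3 did. Ctsk, a cathepsin gene, rose from 6.45 and 5.87 TPM to 15.3 and 18.3 TPM in Dicer1 knockout and had a change of -0.16 in Drosha knockout (difference -1.47 ± 0.14). Npc1, the cholesterol exporter of the lysosome, rose in both (0.58 and 1.23).

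Of 15 contractile smooth muscle genes, 8 had a higher and 4 a lower change in Drosha knockout, beside 17.4% and 18.1% of all genes. Actg2, a smooth muscle actin gene, fell from 258 and 148 TPM to 37.3 and 43.98 TPM in Dicer1 knockout, with a change of 0.05 in Drosha knockout (difference 2.30 ± 0.26). Of 15 genes of fatty acid oxidation, 6 had a higher change and 1 a lower one, beside the same 17.4% and 18.1%. Acadm, which encodes a medium-chain dehydrogenase, rose by 0.46 in Drosha knockout and fell by 1.15 in Dicer1 knockout, a fall not called without its replicate 1. In the Wnt pathway, Ccn4 rose in both (0.68 and 2.05) and Dkk3, a secreted member of the Dickkopf family, was opposite (0.31 and -1.33) except with either Dicer1 knockout library left out. Of 17 miR-29 targets, 8 rose in both and 3 fell in both, beside 14% and 2.8% of all genes. After scaling 2 rose and 3 fell in both, and with either Dicer1 knockout library left out, 1 rose and 2 fell in both. H19, the noncoding host of miR-675, was kept out by its level of at most 1.05 TPM in batch 1. It stood at 43.6, 46.3 and 46.7 TPM with empty vector and at 124.5, 129.9 and 125.9 TPM in Drosha knockout.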
